A study of Mus musculus with 9 samples.

Results

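This comparison set injured mice given R-HNK against sham mice, to show which differences from sham were left in the prelimbic cortex after treatment. It used 6 of the 9 bulk RNA-seq libraries of the study, 3 from the group labelled SNI/R-HNK and 3 from the group labelled Sham/saline. All genes with enough counts were included, which came to 21765 of the 55335 gene symbols in the count table. The sham mice had a sham operation and received saline. The R-HNK mice had spared nerve injury (SNI), in which some branches of the sciatic nerve are cut and another is left intact, and received R-HNK at 10 mg/kg. R-HNK is (2R,6R)-hydroxynorketamine, a metabolite of ketamine. Another group of 3 mice, labelled SNI/saline and called injured saline mice here, had the same injury and received saline, and its values stand beside the others. Prelimbic tissue of all groups was taken on day 14 after surgery. The labels used here give no strain, sex, age, or time of dosing. Sham mice given R-HNK were not analysed here, so the injury and the drug cannot be told apart in this comparison.

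The prelimbic cortex is a part of the medial prefrontal cortex with a role in pain and in emotion, and its output changes in animals with nerve injury. Immediate early genes are genes that neurons switch on within minutes of strong synaptic activity. Calcium and ERK signals reach the transcription factors CREB and SRF at their promoters, and the products include transcription factors such as Fos, Egr and Nr4a proteins and synaptic effectors such as Arc. AMPA receptors, built from the Gria subunits, carry fast excitatory transmission, and their number at the synapse is a proposed target of hydroxynorketamine.

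Library totals ran from 53624337 to 73586375 counts over the 9 libraries. The libraries stood apart in markers of medium spiny neurons, the main cells of the striatum below the cortex. The 15 markers summed to between 1361 and 2613 CPM (counts scaled to a common library total) in 4 libraries, namely replicates 2 and 3 of the sham mice with replicates 1 and 3 of the R-HNK mice, and to between 722.8 and 794.4 CPM in the other 5 libraries. Drd2 codes for a dopamine receptor of many medium spiny neurons, and its level was 1.23, 44.0 and 41.8 CPM in sham mice against 17.5, 1.27 and 24.6 CPM in R-HNK mice, while it was 1.5 to 1.72 CPM in injured saline mice. Each of the 2 compared groups thus held 2 libraries with raised markers and 1 without, at lower levels in the R-HNK mice. Markers of excitatory cortical neurons were abundant throughout, with 10 markers summing to 4500 to 5536 CPM in the 4 raised libraries and 6532 to 7204 CPM in the others. Results are therefore also given within the 4 raised libraries, 2 against 2. Within the 5 others, 1 sham against 1 R-HNK library, they are given as values. Neither compared group has a replicate there, so no test there rests on spread between their mice.

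Across all genes, R-HNK mice differed little from sham mice. By edgeR's quasi-likelihood test over all genes, 1 gene passed at an adjusted p under 0.05, the pseudogene Gm6344, which was higher in R-HNK mice (0.00459% of genes tested), and 0 genes passed as lower. Among the members of 35 gene lists the lowest adjusted p was 0.678. An unadjusted p under 0.05 was reached by 769 genes (3.53%), 361 higher (1.66%) and 408 lower (1.87%). DESeq2 called 10 genes, 6 higher and 4 lower: Gm6344, Egr2, Nr4a1, Ptgs2, Rprm and Trib1 were higher, and Pcdhgb8, Ikzf2, Gm16332 and Capn11 were lower. With edgeR, the count was 11 without sham replicate 1, 2 without sham replicate 2, 3 without sham replicate 3 and 2 without R-HNK replicate 2 or 3. It was 47 within the 4 raised libraries, 35 of them lower. Injured saline mice, tested against the same sham libraries, had 1.07% of genes passing. The intervals show what size of difference was left unresolved: the 95% interval of the log2 fold change lay within 1 of 0 for 14883 genes (68.4%), and for 14562 of the 15725 genes whose log2 CPM averaged 0 or more (92.6%).

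**Figure D1:**
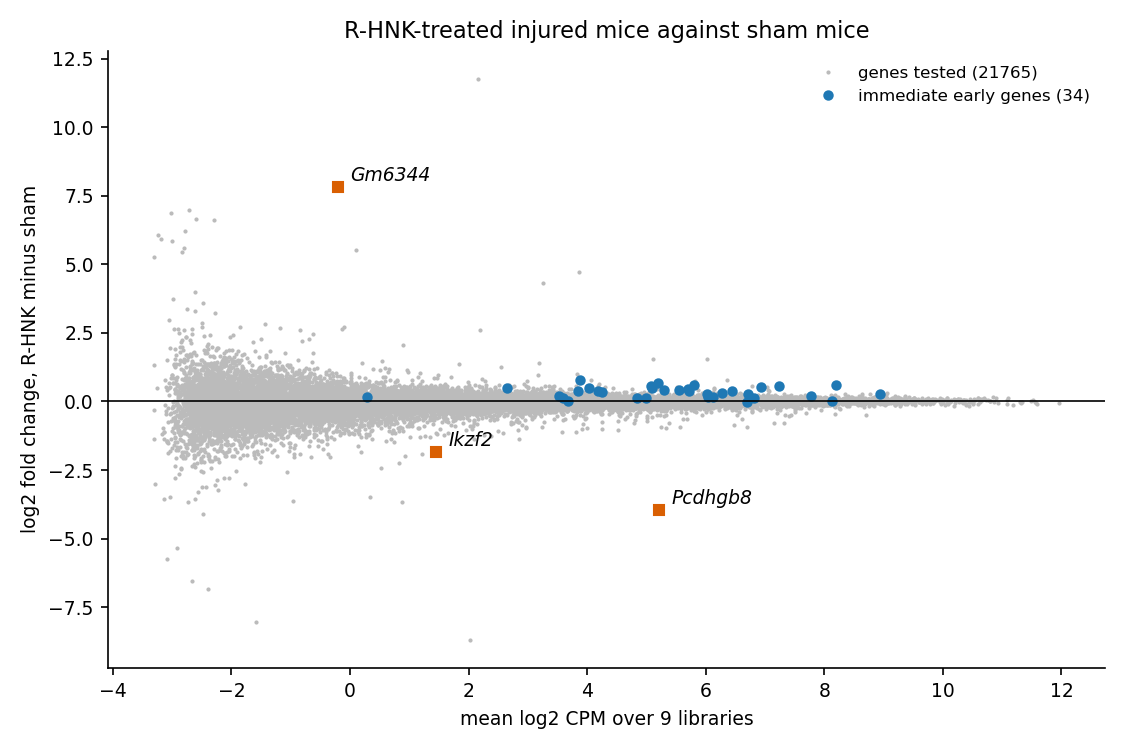
Log2 fold change of R-HNK mice over sham mice against the mean log2 CPM over 9 libraries, for 21765 genes (grey points), with the 34 immediate early genes in blue and Gm6344, Pcdhgb8 and Ikzf2 as orange squares. All but 1 of the blue points lie above 0, and Gm6344 alone passed the edgeR test.

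Immediate early genes lay a little above sham in R-HNK mice and well below injured saline mice. Of 34 genes listed, all were tested and 0 passed against sham by edgeR, while DESeq2 called Egr2, Nr4a1 and Trib1. The median log2 fold change over sham was 0.36, against -0.0063 over all genes, and 33 of the 34 were above 0 (48.3% of all genes). This list, like the others, was chosen with earlier results of these data known. The shares of all genes beside its counts are therefore description and no independent test. An unadjusted p under 0.05 was reached by 17 genes, all higher (1.66% of all genes). In 13 genes every R-HNK value was above every sham value (4.43% of all genes), and in 26 every R-HNK value was below every injured saline value (6.59% of all genes). For 30 of the 34, the 95% interval over sham stayed within 1 of 0, that is, under a 2-fold difference. This held for 68.4% of all genes, and for 92.6% of those whose log2 CPM averaged 0 or more. In injured saline mice against the same sham libraries, the median was 0.92 and 22 genes passed as higher (0.515% of all genes). In R-HNK against injured saline mice, the median was -0.61 and 9 genes passed as lower (0.0827% of all genes).

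The list's median was above 0 both in the libraries with raised striatal markers and in those without. It was 0.34 within the 4 raised libraries and 0.39 within the 5 others, and ran from 0.26 to 0.43 over all other settings tried. The mean log2 CPM of the 34 genes, relative to the mean of the sham mice, was -0.08, -0.05 and 0.13 in the sham libraries. It was 0.25, 0.32 and 0.46 in the R-HNK libraries and 0.91, 0.93 and 0.96 in the injured saline libraries. The 3 groups did not overlap on this measure.

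The promoters of 4 of these genes are shown as examples. Each of the 4 was higher in all 3 R-HNK libraries than in any sham library, which held for 13 of the 34 listed genes (4.43% of all genes). The sequences are from RefSeq on GRCm38.p6, 5′ to 3′ on the strand of the gene. They are the first 240 of the 250 bases before the start of transcription used, so the bases next to the start are left out. The bases printed for Egr2 lie inside the span of that gene given below. Capitals mark the TGACG core of the cAMP response element, on either strand (CGTCA on the other), and in Egr2 also a CArG box, the binding motif of SRF. The positions are chr10:67537619-67537858 (plus strand) for Egr2, chr6:85513600-85513839 (minus) for Egr4, chr7:19310056-19310295 (minus) for Fosb and chr15:101266596-101266835 (plus) for Nr4a1.
Egr2: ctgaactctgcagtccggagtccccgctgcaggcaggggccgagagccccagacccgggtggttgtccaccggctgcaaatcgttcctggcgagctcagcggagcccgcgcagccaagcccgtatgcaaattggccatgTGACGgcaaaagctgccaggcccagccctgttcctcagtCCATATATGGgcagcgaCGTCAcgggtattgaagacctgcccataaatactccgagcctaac
Egr4: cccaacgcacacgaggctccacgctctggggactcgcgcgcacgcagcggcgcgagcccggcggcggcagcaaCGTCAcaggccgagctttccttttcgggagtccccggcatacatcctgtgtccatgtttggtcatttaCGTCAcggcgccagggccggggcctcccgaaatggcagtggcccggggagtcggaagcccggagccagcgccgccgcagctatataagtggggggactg
Fosb: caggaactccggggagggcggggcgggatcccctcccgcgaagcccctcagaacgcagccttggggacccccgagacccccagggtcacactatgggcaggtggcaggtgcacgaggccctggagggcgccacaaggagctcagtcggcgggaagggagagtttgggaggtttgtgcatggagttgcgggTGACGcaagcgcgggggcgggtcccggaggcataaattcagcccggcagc
Nr4a1: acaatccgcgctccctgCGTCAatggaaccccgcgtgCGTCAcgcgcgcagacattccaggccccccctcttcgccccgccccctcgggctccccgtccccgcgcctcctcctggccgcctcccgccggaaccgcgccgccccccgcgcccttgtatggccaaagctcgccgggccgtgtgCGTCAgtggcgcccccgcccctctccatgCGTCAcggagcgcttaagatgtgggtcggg
The core occurred 2 times in Egr2, 2 times in Egr4, 1 time in Fosb and 4 times in Nr4a1. All 4 shown thus hold it, while Dusp6, which was also above sham without overlap and is not shown, held it 0 times. Of the 34 listed genes, 26 were matched to a promoter in the RefSeq table, and 17 of these (65.4%) held the core within 250 bases before the start, against 17.9% of 27025 promoters. The full element TGACGTCA, which holds the core on both strands, was in 2 of the 26 (7.69%) against 1.62%, and a CArG box in 2 (7.69%) against 1.38%. A match describes the letters only and shows no binding.

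Egr2, a zinc finger factor of the Egr family, gave the smallest p of the list. Egr2 (ENSMUSG00000037868.15, chr10:67535475-67542188) measured 5.62, 8.08 and 8.86 CPM in the sham libraries, 11.1, 12.8 and 14.8 CPM in the R-HNK libraries, and 23.3, 24.0 and 23.4 CPM in the injured saline libraries. The 3 groups did not overlap, with R-HNK between the others. The log2 fold change over sham was 0.78 (95% interval 0.44 to 1.12), or 1.72-fold, with an edgeR adjusted p of 0.93. Egr4 gave 56.6, 57.4 and 67.4 CPM in sham, 71.8, 82.9 and 83.8 CPM in R-HNK, and 119, 128 and 119 CPM in injured saline mice. Again no values overlapped, with a log2 fold change over sham of 0.40 (0.21 to 0.58). Egr1, a common marker of active neurons, overlapped between sham (338 to 383 CPM) and R-HNK mice (372 to 510 CPM), with a log2 fold change of 0.29 (0.07 to 0.50). Against injured saline mice Egr1 and Egr4 passed as lower (adjusted p 0.0267 and 0.0134), and Egr2 did not (0.0638).

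Trib1, a pseudokinase that steers proteins to degradation and acts on the MAP kinase pathway, gave the second smallest p of the list. Its levels were 21.8, 19.6 and 18.3 CPM in sham, 27.6, 25.5 and 29.6 CPM in R-HNK, and 49.5, 57.5 and 58.9 CPM in injured saline mice. The R-HNK values stood just above the sham values and far below the injured saline values. The log2 fold change over sham was 0.47 (0.26 to 0.68, edgeR adjusted p 0.93), while it was 1.48 in injured saline mice (adjusted p 3.18e-05). Dusp6, a phosphatase that switches off ERK, lay at 46.3 to 59.4 CPM in sham and 63.3 to 67.3 CPM in R-HNK mice, a log2 fold change of 0.29 (0.10 to 0.48). Both genes passed as lower in R-HNK than in injured saline mice (adjusted p 0.00221 for Trib1 and 0.00335 for Dusp6).

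Genes of the Fos and Jun families, subunits of the AP-1 factor, were higher by value without passing. Fosb measured 19.1, 21.2 and 27.8 CPM in sham, 33.2, 31.7 and 34.6 CPM in R-HNK, and 50.3, 46.7 and 40.7 CPM in injured saline mice. The groups did not overlap, and the log2 fold change over sham was 0.55 (0.28 to 0.82). Fos gave 27.7, 29.6 and 42.8 CPM in sham and 42.0, 53.9 and 54.5 CPM in R-HNK mice, so that sham replicate 3 reached the lowest R-HNK value. Its log2 fold change was 0.59 (0.23 to 0.94), 0.42 within the 4 raised libraries and 0.96 within the 5 others. Fosl2 had a log2 fold change of 0.45 and Junb of 0.52. Junb passed without sham replicate 3 (0.84, adjusted p 0.0340).

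Among the Nr4a orphan nuclear receptors, Nr4a1 measured 81.7, 77.6 and 105 CPM in sham, 112, 124 and 157 CPM in R-HNK, and 234, 233 and 240 CPM in injured saline mice. Every R-HNK value lay above the sham range, with a log2 fold change of 0.58 (0.29 to 0.86). Nr4a3 gave 31.1, 28.6 and 29.9 CPM in sham and 42.9, 33.2 and 44.8 CPM in R-HNK mice, with R-HNK replicate 2 close to the sham values. Its log2 fold change was 0.43 (0.19 to 0.67), and ran from 0.094 to 0.59 over the other settings. It passed within the 4 raised libraries (0.59, adjusted p 0.0325). Against injured saline mice both passed as lower, at -0.84 for Nr4a1 and -0.80 for Nr4a3 (adjusted p 0.0406 and 0.0134).

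Arc, which drives removal of AMPA receptors from synapses, measured 108, 125 and 187 CPM in sham, 176, 205 and 252 CPM in R-HNK, and 465, 506 and 620 CPM in injured saline mice. Sham replicate 3 lay inside the R-HNK range, and no R-HNK value reached the injured saline range. The log2 fold change over sham was 0.59 (0.06 to 1.12). Csrnp1, a nuclear protein induced by growth signals, measured 7.52, 7.52 and 7.60 CPM in sham, 8.01, 7.88 and 10.0 CPM in R-HNK, and 17.8, 19.2 and 17.9 CPM in injured saline mice. Its log2 fold change over sham was 0.20 (-0.06 to 0.45).

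Of the remaining members with an unadjusted p under 0.05, Ier2 (0.48), Klf4 (0.50), Klf10 (0.40), Per1 (0.27) and Gadd45b (0.37) had log2 fold changes over sham in the same range. Per1 is also a clock gene and stands on the list of 20 clock genes, whose median was -0.01. The members of this list beyond Egr2, Trib1 and Egr4 were named after their values were seen.

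**Figure D2:**
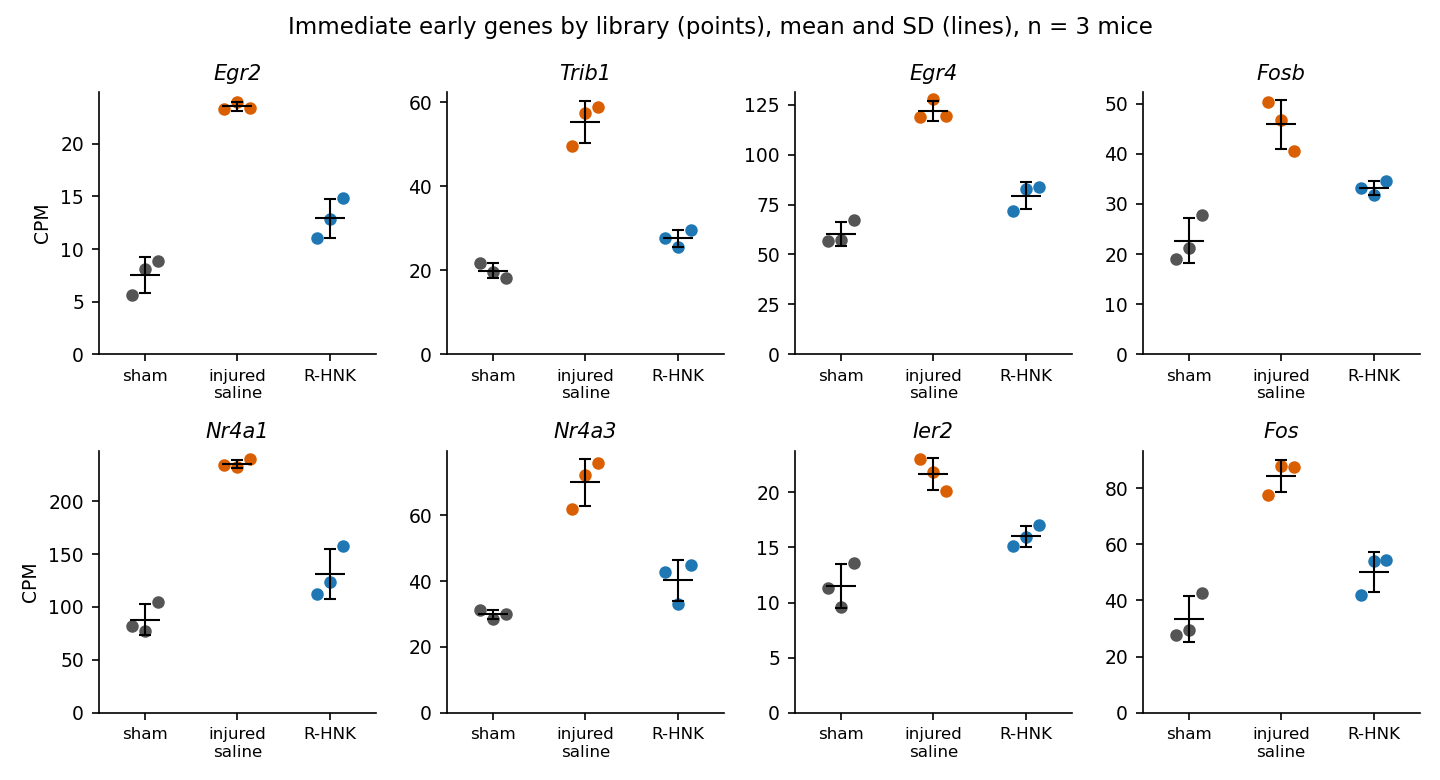
CPM of 8 immediate early genes in each library (points), with the mean and SD of 3 mice (lines), for sham, injured saline and R-HNK mice. In every panel but Fos the R-HNK points lie above all sham points, and in all 8 they lie below all injured saline points.

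**Figure D3:**
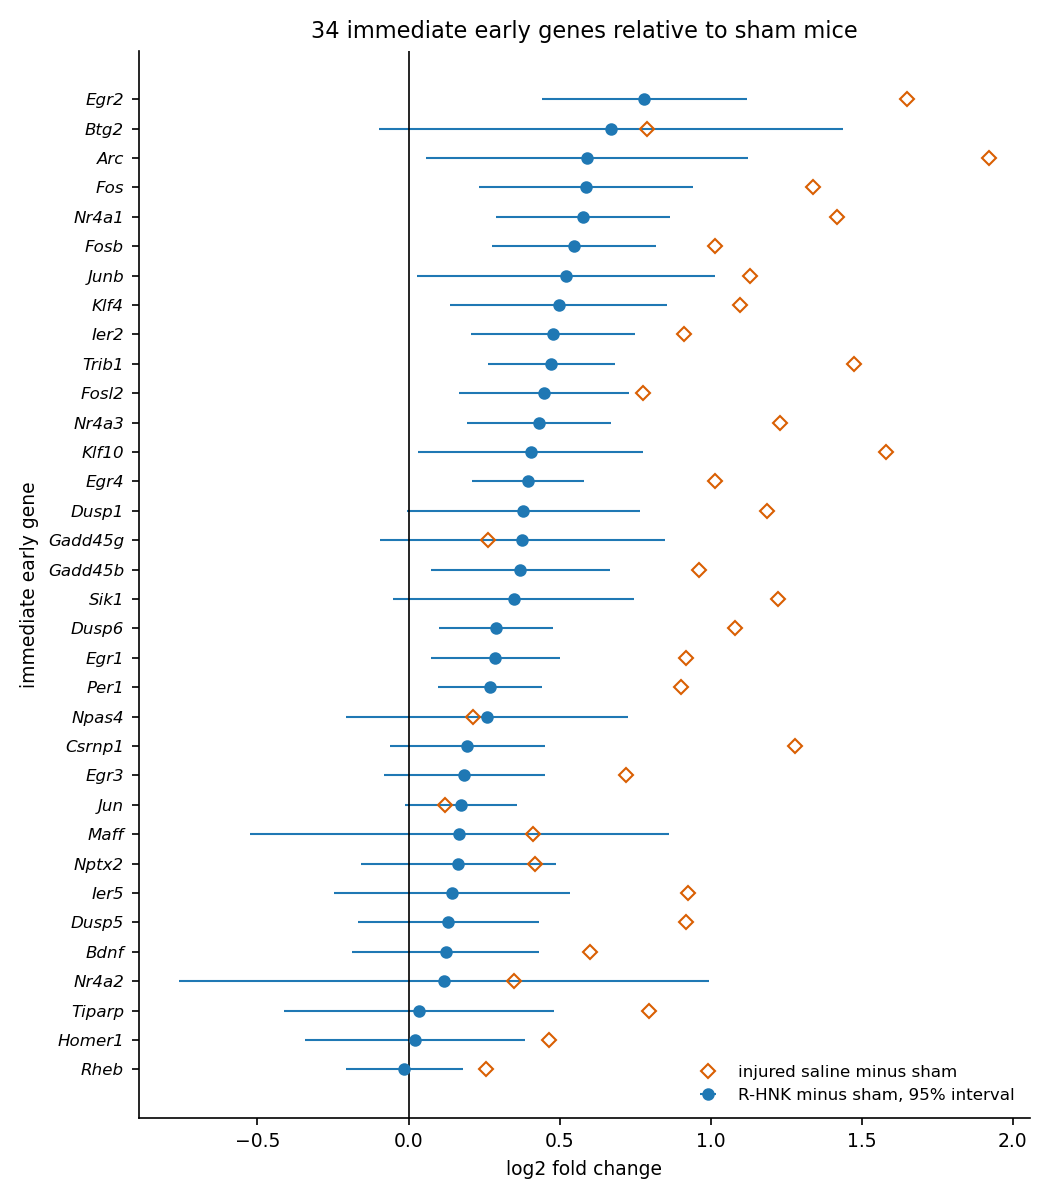
Log2 fold change over sham of the 34 immediate early genes, for R-HNK mice with the 95% interval (blue) and for injured saline mice (orange diamonds), both measured against the same sham libraries. The R-HNK estimates run from -0.01 to 0.78, and the interval of 17 genes lies wholly above 0.

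Ptgs2 and Rprm were nearly as high in R-HNK as in injured saline mice. Ptgs2, the inducible cyclooxygenase that makes prostaglandins and is itself raised by neuronal activity, measured 10.8, 9.52 and 10.3 CPM in sham, 16.0, 14.0 and 14.9 CPM in R-HNK, and 14.7, 18.03 and 17.3 CPM in injured saline mice. R-HNK and injured saline values overlapped, and both stood clear of sham. The log2 fold change over sham was 0.55 (0.31 to 0.79) in R-HNK and 0.71 in injured saline mice, with edgeR adjusted p of 0.93 and 0.00991. Rprm, a cell cycle inhibitor that marks deep-layer cortical neurons, gave 62.1, 50.8 and 49.9 CPM in sham, 76.8, 72.7 and 72.7 CPM in R-HNK, and 75.8, 89.6 and 80.7 CPM in injured saline mice. It was again clear of sham in both injured groups, at 0.45 (0.25 to 0.65) in R-HNK and 0.60 in injured saline mice. In R-HNK mice it passed without sham replicate 1 (0.57) and within the 4 raised libraries (0.58), and its value was 0.23 within the 5 others. Fezf2, the factor that specifies deep-layer projection neurons, measured 44.0, 30.7 and 36.2 CPM in sham and 60.1, 52.7 and 44.3 CPM in R-HNK mice (0.50, interval 0.19 to 0.81), without overlap. Of the 14 deep-layer markers, 0 passed and 3 (Rprm, Fezf2 and Hs3st4) were higher at an unadjusted p under 0.05 (1.66% of all genes). The others included 6 below 0, and the median was 0.12, with 0.21 within the 4 raised libraries and 0.05 within the 5 others.

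Ikzf2 and Tmem144 were lower by value in R-HNK mice than in both other groups. Ikzf2 (ENSMUSG00000025997.13, chr1:69531214-69687245), which codes for the zinc finger factor Helios, measured 4.0, 3.45 and 4.38 CPM in sham, 0.837, 0.650 and 1.78 CPM in R-HNK, and 2.24, 3.70 and 3.36 CPM in injured saline mice. Every R-HNK value lay below every value of both other groups. The log2 fold change over sham was -1.86 (-2.59 to -1.12) with an edgeR adjusted p of 0.843, and it passed with DESeq2 and without R-HNK replicate 3 (-2.40). The value was -1.58 within the 4 raised libraries and -2.62 within the 5 others. Tmem144, a membrane protein of the carbohydrate transporter family, gave 8.82, 8.81 and 7.71 CPM in sham, 5.97, 6.05 and 6.03 CPM in R-HNK, and 7.83, 7.80 and 7.74 CPM in injured saline mice. Its R-HNK values were below both other groups, at -0.49 (-0.76 to -0.22). For these genes the differences between R-HNK and injured saline mice did not pass either (adjusted p 0.238 for Ikzf2 and 0.528 for Tmem144).

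Pcdhgb8, a gamma protocadherin of the adhesion proteins that give neurons their surface identity, had a large difference. GENCODE lists it as a polymorphic pseudogene (ENSMUSG00000103081.2). It measured 94.9, 40.3 and 79.3 CPM in sham, 5.56, 3.14 and 5.01 CPM in R-HNK, and 29.4, 47.6 and 26.8 CPM in injured saline mice. Every R-HNK value was below all others, which held against sham for 4.42% of all genes. This was a log2 fold change over sham of -3.96 (-5.03 to -2.90), with an adjusted p of 0.678 by edgeR and 2.43e-19 by DESeq2. Gamma protocadherins share exons, so reads may be split between them and this level is uncertain. Of the 56 clustered protocadherins tested, 0 passed by edgeR, the median was 0.00, 1 (Pcdha11) was higher at an unadjusted p under 0.05 (1.66% of all genes) and 4 were lower (1.87%).

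Gm6344 (ENSMUSG00000094446.1) was the single gene that passed, and it did so under every setting tried with more than 1 library in each compared group. It is annotated as a processed pseudogene at chr13:55085777-55086259 on the plus strand of GRCm38, within the span of the minus-strand gene Uimc1. Its counts were 0, 1 and 0 in sham, 150, 142 and 72 in R-HNK, and 56, 19 and 45 in injured saline mice. Both injured groups stood above sham, with an adjusted p of 0.00447 for R-HNK and 0.00268 for injured saline mice by edgeR. The depth-scaled ratio of 364 counts in R-HNK to 1 in sham was 307, with an exact 95% interval of 54.7 to 12156 that covers counting error only. R-HNK and injured saline mice did not differ at the threshold (adjusted p 0.509). Uimc1 itself had a log2 fold change of 0.06, with overlapping values. The sources used here do not say whether reads were counted by strand, and reads from processed pseudogenes can come from a near-identical copy, so the origin of these counts is uncertain. The gene lies outside the naming rule and was chosen after its values were seen.

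Bmp6, Apod and Dcc completed the 5 full-symbol genes with the smallest p among the lower ones. Bmp6, a secreted growth factor of the bone morphogenetic protein family, measured 6.32, 7.504 and 5.89 CPM in sham, 3.55, 2.97 and 3.97 CPM in R-HNK, and 2.64, 1.57 and 2.11 CPM in injured saline mice. R-HNK lay between the other groups without overlap, at -0.91 (-1.37 to -0.45) against -1.64 in injured saline mice. Apod, an apolipoprotein made by glia and perivascular cells, gave 88.6, 88.9 and 80.8 CPM in sham, 62.8, 59.5 and 76.0 CPM in R-HNK, and 45.9, 52.8 and 54.9 CPM in injured saline mice, at -0.38 (-0.59 to -0.17). Dcc, the netrin receptor of growing axons, lay at 27.1 to 35.5 CPM in sham, 20.9 to 26.2 CPM in R-HNK and 22.2 to 26.2 CPM in injured saline mice, at -0.45 (-0.70 to -0.20). Bmp6 and Apod passed as lower in injured saline mice (adjusted p 0.00376 and 0.00332), and Dcc did not (0.109).

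**Figure D4:**
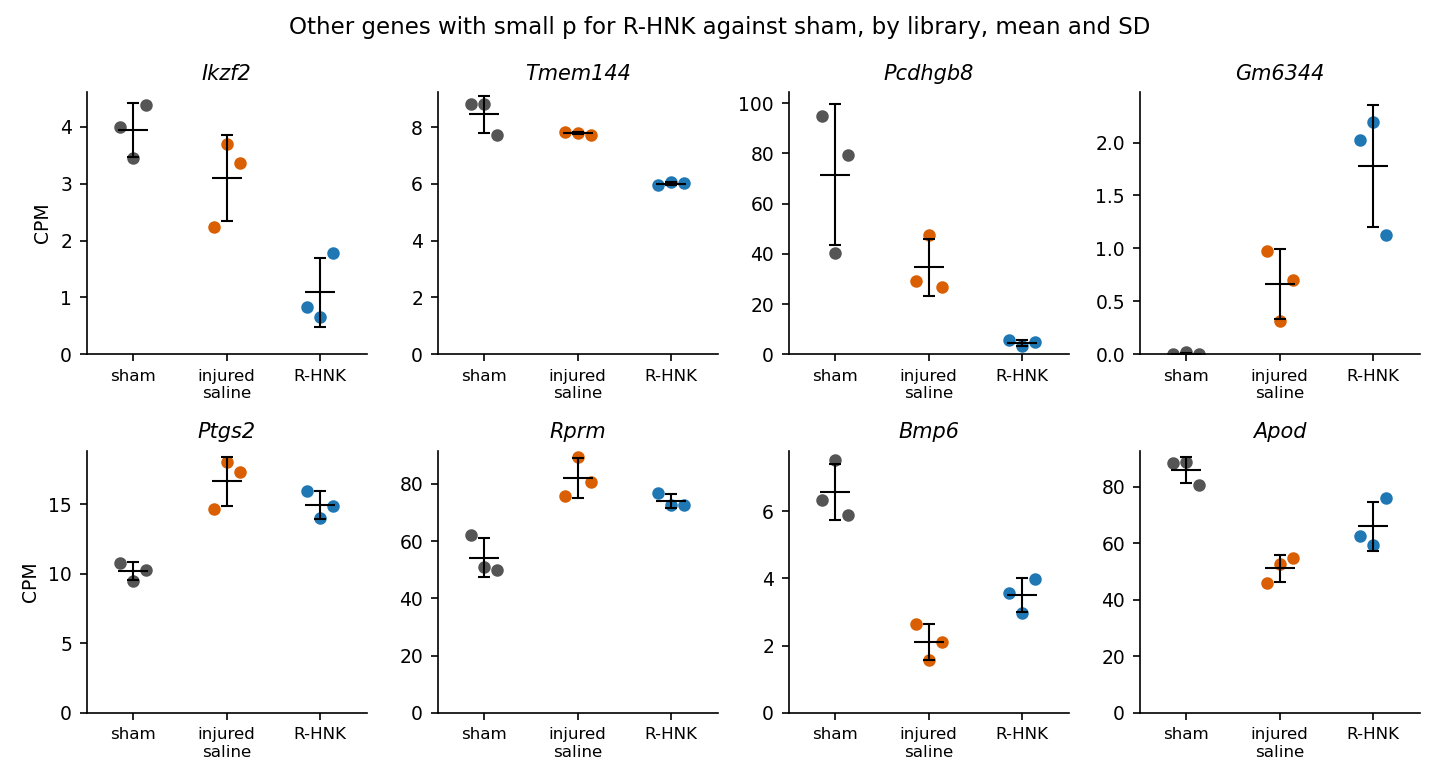
CPM of 8 further genes in each library (points), with the mean and SD of 3 mice (lines). Ikzf2, Tmem144 and Pcdhgb8 are below both other groups in R-HNK mice, Gm6344 is near 0 in sham mice, and the R-HNK values of Ptgs2 and Rprm overlap those of injured saline mice.

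AMPA receptor genes showed no difference that passed. Their intervals were narrow, as they were for most genes whose log2 CPM averaged 0 or more. Of 30 subunits, auxiliary proteins and partners, 0 passed by edgeR, the median log2 fold change was 0.02 (-0.018 to 0.067 over all settings) and 17 were above 0 (48.3% of all genes). At an unadjusted p under 0.05, 1 was higher (1.66% of all genes) and 1 lower (1.87%), which is near the share of all genes. The interval lay within 1 of 0 for 28 of the 30, and within 0.5 for 25. It lay within 1 of 0 for 68.4% of all genes, and for 92.6% of those whose log2 CPM averaged 0 or more. No share over all genes was taken for the 0.5 bound. Gria1 measured 415, 450 and 506 CPM in sham, 492, 398 and 439 CPM in R-HNK, and 416, 364 and 393 CPM in injured saline mice. The sham and R-HNK values overlapped, at -0.04 (-0.25 to 0.16). Gria2, the subunit that sets calcium permeability, was at -0.09 (-0.24 to 0.06), Gria3 at 0.02 (-0.15 to 0.18), Gria4 at -0.01 (-0.27 to 0.25), and Dlg4, the PSD-95 scaffold, at -0.01 (-0.17 to 0.14). The direction of Gria1, Gria3, Gria4 and Dlg4 changed between settings.

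Among the AMPA receptor partners, Cacng5, a TARP-family auxiliary subunit, measured 24.5, 24.0 and 21.6 CPM in sham, 12.1, 19.9 and 12.9 CPM in R-HNK, and 10.5, 6.30 and 8.73 CPM in injured saline mice. R-HNK values lay between the other groups, at -0.64 (-1.10 to -0.19). Cacng5 gave -0.86 and passed within the 4 raised libraries (adjusted p 0.0239), and gave -0.30 within the 5 others. Nptx1, a secreted pentraxin that clusters AMPA receptors, measured 521, 397 and 410 CPM in sham and 588, 488 and 555 CPM in R-HNK mice, at 0.30 (0.08 to 0.51). The library without raised striatal markers was the highest of the sham and the lowest of the R-HNK libraries for Nptx1, and the highest of both for Cacng5. Nptx1 was 0.51 within the 4 raised libraries, where it passed (adjusted p 0.0239), and -0.09 within the 5 others. In the other synaptic lists, 0 genes passed. The median was -0.10 for 21 NMDA, kainate and metabotropic receptors (-0.044 without sham replicate 1, -0.053 without sham replicate 2 and -0.024 within the 4 raised libraries). It was -0.02 for 28 postsynaptic scaffold genes, and ran from -0.071 within the 5 libraries without raised markers to 0.03 without sham replicate 1. For 31 vesicle release genes it was 0.05, with 0.15 without sham replicate 1 and -0.0022 without sham replicate 3. The direction of the scaffold and vesicle medians thus turned with the libraries used. The lowest p there belonged to Grm4, a presynaptic metabotropic receptor, at -0.36, and to Dlgap2, a scaffold protein, at -0.20.

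Genes of interneuron progenitors and neuroblasts lay closer to sham in R-HNK mice than in injured saline mice. These genes include the Dlx homeobox factors that specify GABAergic neurons and Dcx, a microtubule protein of migrating neurons. Of 29 tested, 0 passed against sham by edgeR, 3 were lower at an unadjusted p under 0.05 (Pbx3, Scgn and Dlx5; 1.87% of all genes), and the median was -0.21. Against the same sham libraries, the median in injured saline mice was -1.005 and 14 passed as lower (0.556% of all genes). In R-HNK against injured saline mice 7 passed as higher (0.0368% of all genes), and in 20 of the 29 every R-HNK value was above every injured saline value (7.15% of all genes). No injured saline library was raised in striatal markers, while R-HNK replicates 1 and 3 and sham replicates 2 and 3 were. The share of striatal tissue in the differences from injured saline mice was not tested. The median over sham was -0.34 within the 4 raised libraries and 0.10 within the 5 others, so its direction turned with the libraries used. It was also -0.34 without sham replicate 1 and -0.11 without sham replicate 3.

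Dlx1 measured 69.2, 72.5 and 72.2 CPM in sham, 62.8, 72.0 and 60.9 CPM in R-HNK, and 48.7, 42.9 and 41.9 CPM in injured saline mice. R-HNK values reached the sham range and stood clear of injured saline mice, at -0.13 over sham (-0.31 to 0.05). Sp9, a zinc finger factor of the same lineage, gave 16.0, 20.1 and 21.3 CPM in sham, 14.7, 18.1 and 14.8 CPM in R-HNK, and 6.17, 7.46 and 7.69 CPM in injured saline mice, at -0.27 (-0.56 to 0.03). Igfbpl1, a secreted protein of neuroblasts, gave 3.98, 7.73 and 10.8 CPM in sham, 7.14, 3.88 and 5.43 CPM in R-HNK, and 0.696, 0.916 and 1.09 CPM in injured saline mice. For Igfbpl1 the sham and R-HNK values overlapped widely. Dlx1, Dlx2, Sp9, Pax6, Igfbpl1 and Pbx3 were among the 7 that passed against injured saline mice.

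Pbx3, a homeobox cofactor also used in striatal neurons, had the smallest p over sham among these 6. It measured 18.3, 23.6 and 21.7 CPM in sham, 11.5, 18.1 and 12.4 CPM in R-HNK, and 7.10, 5.22 and 5.97 CPM in injured saline mice, at -0.60 over sham (-0.98 to -0.22). Its value was -0.92 within the 4 raised libraries, where it passed (adjusted p 0.0202), and -0.01 within the 5 others. Scgn, a calcium-binding protein of olfactory and striatal interneurons, was at -1.44 (-2.58 to -0.31). The 14 markers of olfactory bulb and subventricular neuroblasts, 9 of which are on the progenitor list too, had a median of -0.50 (-0.21 within the 5 libraries without raised striatal markers), against -1.68 in injured saline mice.

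Markers of fibroblasts, and of choroid plexus and ependyma, had medians below 0 over sham in both injured groups. Of 15 markers of meningeal and perivascular fibroblasts, 0 passed and 0 had a log2 fold change above 0 (48.3% of all genes). At an unadjusted p under 0.05, 4 were lower (1.87% of all genes). The median was -0.39, against -0.75 in injured saline mice. Fmod, a collagen-binding proteoglycan, measured 6.58, 5.73 and 6.15 CPM in sham, 3.78, 4.80 and 3.20 CPM in R-HNK, and 3.29, 2.95 and 3.33 CPM in injured saline mice. It was clear of sham at -0.65 (-1.04 to -0.25). Igf2, the growth factor secreted by the meninges, overlapped between sham and R-HNK mice at -0.38 (-0.72 to -0.04). The fibroblast median was -0.06 within the 4 raised libraries and -0.93 within the 5 others, and -0.16 without sham replicate 1. The 11 choroid plexus and ependymal markers had a median of -0.66, which was -0.43 within the 4 raised libraries and -0.25 within the 5 others. At an unadjusted p under 0.05, 2 were lower (1.87% of all genes): Hydin, a protein of motile cilia, at -1.08 and Foxj1, the master factor of these cilia, at -0.66. The amount of such tissue in each sample and the RNA level per cell cannot be told apart in bulk libraries.

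Blood cell markers were the list with the highest median over sham, at 0.48 over 9 genes, against -0.48 in injured saline mice. In R-HNK mice 0 passed and 4 were higher at an unadjusted p under 0.05 (1.66% of all genes). The list was not uniform: 7 markers were above 0 (48.3% of all genes) and 2 below, down to -0.74. Every R-HNK value was above every sham value in 3 markers (4.43% of all genes) and below in 2 (4.42%). Hba-a1, an alpha globin, measured 125, 165 and 148 CPM in sham, 207, 225 and 183 CPM in R-HNK, and 132, 89.2 and 87.8 CPM in injured saline mice. The R-HNK values stood above both other groups, at 0.49 (0.11 to 0.86). Hba-a2 (0.56) and Hbb-bt (0.48) had similar values. Globin genes have near-identical copies, so their single values are uncertain. The 9 markers summed to 357 to 542.6 CPM in sham and 545.8 to 723.8 CPM in R-HNK mice. The median was 0.31 without sham replicate 1, 0.19 within the 4 raised libraries and 0.93 within the 5 others.

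Striatal markers themselves were lower by value in R-HNK than in sham mice. Of 15, 0 passed and 0 were above 0 (48.3% of all genes), with a median of -0.73 and 0 at an unadjusted p under 0.05 (3.53% of all genes). The median was -1.18 without sham replicate 1, -0.40 without sham replicate 2, -0.36 and -1.13 without R-HNK replicates 2 and 3, -0.82 within the 4 raised libraries and 0.01 within the 5 others. Adora2a, an adenosine receptor enriched in the striatum, lay at 1.88, 62.6 and 69.2 CPM in sham and 23.0, 2.04 and 40.6 CPM in R-HNK mice. In the other cell type lists, astrocyte markers had a median of -0.09, which was -0.17 without sham replicate 1 and -0.16 without R-HNK replicate 3. Of the 12 astrocyte markers, 3 were lower at an unadjusted p under 0.05 (1.87% of all genes): Slc4a4 (-0.38), Aqp4 (-0.31) and Slc1a3 (-0.18). Excitatory neuron markers had a median of 0.15, which was 0.33 without sham replicate 1, 0.059 without sham replicate 3, 0.28 within the 4 raised libraries and -0.01 within the 5 others. Neurod1, a factor of excitatory neurons, gave 9.76, 9.37 and 10.5 CPM in sham, 11.9, 12.4 and 12.9 CPM in R-HNK, and 10.2, 10.2 and 11.8 CPM in injured saline mice, and so stood above both other groups, at 0.33 (0.09 to 0.57). Myelin markers had a median of -0.13, which was -0.38 without sham replicate 1, -0.37 without R-HNK replicate 3, 0.027 without sham replicate 3, 0.077 without R-HNK replicate 2 and 0.04 within the 5 libraries without raised striatal markers.

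Lists of cell maintenance and signalling held small differences or none that passed. Heat shock and protein folding genes were above 0 in 34 of 39 (48.3% of all genes), with a median of 0.10 that ran from 0.08 to 0.12 over the other settings. Dnajb1, a co-chaperone of the heat shock response, measured 61.7, 59.6 and 66.2 CPM in sham, 69.8, 73.1 and 71.2 CPM in R-HNK, and 90.7, 74.4 and 82.5 CPM in injured saline mice, without overlap, at 0.19 (0.02 to 0.36). Hspa5, the chaperone of the endoplasmic reticulum, was at 0.22 (0.01 to 0.44). Of 64 cytosolic ribosomal protein genes 56 were above 0 (48.3% of all genes), with a median of 0.05. That median was 0.00 without sham replicate 1 and 0.13 within the 5 libraries without raised striatal markers. Of 58 respiratory chain genes 50 were above 0 (48.3% of all genes), with a median of 0.04 (0.016 to 0.087 over all settings). All 58 had an interval within 0.5 of 0, a bound for which no share over all genes was taken. The 26 genes of BDNF, TrkB and mTOR signalling, through which hydroxynorketamine is often studied, had a median of -0.02 (-0.028 to 0.019 over all settings), with 0 higher and 0 lower at an unadjusted p under 0.05. GABA genes had a median of -0.08, which was -0.16 without R-HNK replicate 2, -0.012 without R-HNK replicate 3 and 0.015 within the 5 libraries without raised striatal markers. Of the 23 GABA genes, 3 were lower at an unadjusted p under 0.05 (1.87% of all genes). Slc6a11, a GABA transporter of glia, measured 186, 190 and 172 CPM in sham, 139, 145 and 154 CPM in R-HNK, and 154, 117 and 122 CPM in injured saline mice. R-HNK values were below sham without overlap, at -0.33 (-0.53 to -0.12).

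Of the neuropeptide and receptor genes, Sstr2, a somatostatin receptor, measured 22.4, 16.0 and 16.6 CPM in sham, 24.97, 25.4 and 25.7 CPM in R-HNK, and 27.5, 40.5 and 42.7 CPM in injured saline mice. The groups did not overlap, at 0.47 over sham (0.11 to 0.83), and it passed within the 4 raised libraries at 0.64 (adjusted p 0.0433). Over the other settings the value of Sstr2 ran from 0.18 to 0.65. Tacr1, the receptor of substance P, was at -0.59 (-1.16 to -0.01) over sham and passed as lower in injured saline mice (-1.53, adjusted p 0.0204). Among interferon-stimulated genes, 0 of 30 passed and 12 were above 0 (48.3% of all genes). At an unadjusted p under 0.05, 2 were lower (1.87% of all genes), Trim30a (-0.97) and Ifit1 (-0.85). The median of the 30 was -0.14. It turned to 0.00055 without sham replicate 2, 0.0047 without R-HNK replicate 2 and 0.012 with the striatal score as a term. In the list of cytokines, complement and innate immunity the median of 29 genes was -0.02 (-0.052 to 0.087 over all settings), and Il1r1, the interleukin 1 receptor, was at 0.47 (0.02 to 0.93).

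**Figure D5:**
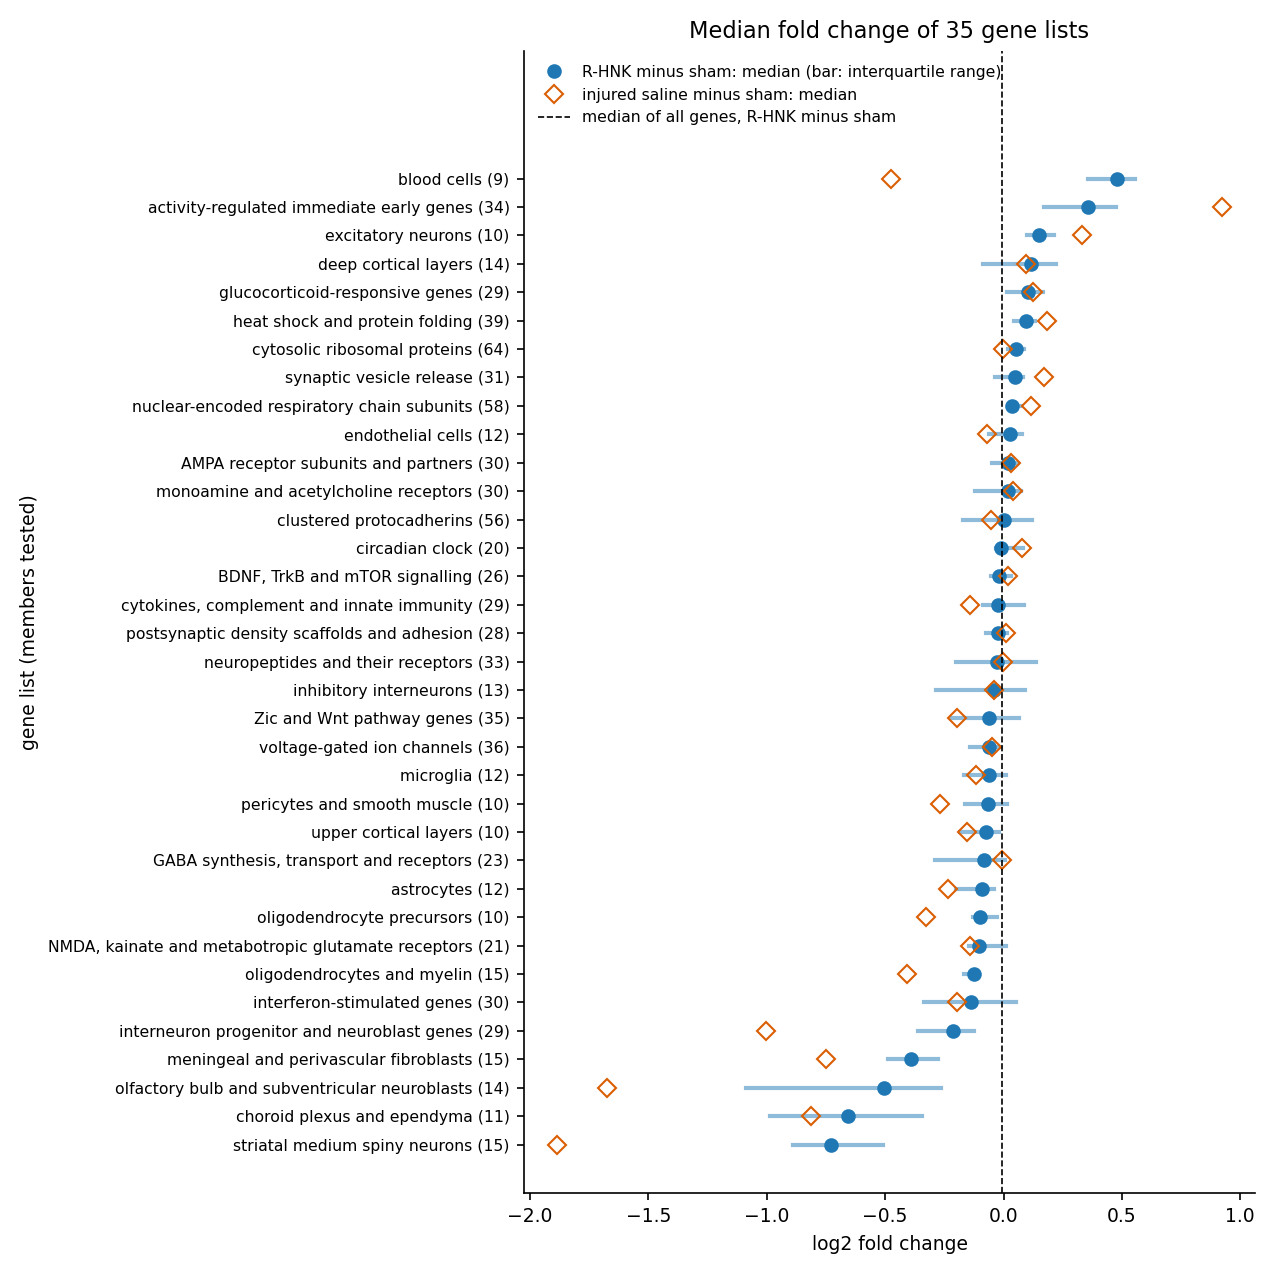
Median log2 fold change over sham of 35 gene lists for R-HNK mice (blue points, bars for the interquartile range of the members) and injured saline mice (orange diamonds), both against the same sham libraries, with the median of all genes in R-HNK mice as a dashed line. Immediate early genes and blood cell markers lie highest for R-HNK mice, at 0.36 and 0.48, and striatal markers lowest, at -0.73.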

How the data were processed

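Bulk RNA from the prelimbic cortex of 9 mice, 3 per group, was sequenced on a NovaSeq instrument, per the labels. The submitters' processing notes name HISAT2 2.0.5, mm10 and featureCounts 1.5.0-p3, while the deposited table is named for StringTie. It holds unnormalized expected counts, whole numbers estimated per gene by the authors. The sources used here do not state strandedness. Of 55335 symbols, 20334 were 0 in every library, and 107 symbols in 216 lines were kept apart.

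Counts were taken as given and tested in R 4.3.3 with edgeR 4.0.16: filterByExpr by group (21765 genes, 99.96% of counts), TMM scaling, and a robust quasi-likelihood fit to the 9 libraries in 3 groups (common biological coefficient of variation 0.203). Passing means a Benjamini-Hochberg adjusted p under 0.05. Intervals at 95% come from the test statistic and its degrees of freedom. CPM use TMM-scaled library sizes. Exact permutation of 3 against 3 mice cannot go below 0.1. Positions are from GENCODE M21 on GRCm38, which matched 21323 tested genes (97.97%). The analysis was tested on simulated counts. These held no difference in striatal tissue between libraries, so they do not show how the test behaves with one. No library was dropped in the results given first.

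Groups and 35 lists (20 of pathways, 15 of cell type markers) were described by counts and medians, with no set test. Members and lists were chosen with earlier results of these data known. Genes named were the 5 per direction with the smallest p, up to 3 per list, Gria1, Gria2, Gria3, Gria4 and Dlg4. Other genes were named after their values were seen. The alternatives were other scaling, no filter, DESeq2 1.42.0, the 6 compared libraries alone, a replicate block, leaving out each library, and, chosen after seeing the data, 4 settings on striatal markers.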

Additional observations from a re-analysis of the deposited data

How the results depend on the processing

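The count of genes passing was 1 in the fit reported and under relative log expression or upper quartile scaling, no filter, the 6 compared libraries alone, and the striatal marker score or class as a term. It was 10 with DESeq2, 47 within the 4 libraries raised in striatal markers and 25 within the 5 others, and 1 to 11 leaving out 1 library. The count of list members passing was 0 in the fit reported, 5 with DESeq2, 16 within the 4 raised libraries, and 0 to 3 leaving out 1 library. Immediate early genes higher at an unadjusted p under 0.05 numbered 14 to 21 leaving out 1 library. They numbered 16 to 23 under the other settings with more than 1 library in each compared group. Same-numbered sham and R-HNK mice deviated with correlations of -0.15, -0.04 and 0.23. The libraries also differed in striatal markers, so these values cannot decide whether the numbers pair the mice. With the replicate block, 2 genes passed (Gm6344 and Gm20634), and sham replicate 1 correlated most with R-HNK replicate 2 (0.32).

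Over 81 named genes and 19 settings, 21 of 1539 values gained a call, some of them within the 5 libraries without raised striatal markers. A change of sign was seen in 26 values, in 12 genes. Only Gm6344 passed in the fit reported, so only its values could lose a call, and 0 did. Over the fits that left out 1 library, the lowest and highest values were -0.12 and 0.040 for Gria1 and -0.052 and 0.074 for Gria3. They were -0.13 and 0.13 for Gria4 and -0.027 and 0.026 for Dlg4. In the fit reported, Gria1 was -0.044, Gria3 0.016, Gria4 -0.0080 and Dlg4 -0.012. Gria4 was 0.00098 with 6 libraries, 0.13 without sham replicate 1, 0.0018 without injured saline replicate 1, 0.043 and 0.071 without R-HNK replicates 1 and 3, and 0.0012 in the 4 raised libraries. Dlg4 was 0.026 without sham replicate 1, 0.0085 without R-HNK replicate 2 and 0.040 in the 4 raised libraries. Gria1 was 0.040 without sham replicate 3, 0.032 without R-HNK replicate 2 and 0.010 with the striatal score. In the same order Gria3 was -0.020, -0.052 and -0.031, and it was -0.00071 in the 4 raised libraries. With the striatal score Drd2 was 0.62 and Adora2a 0.58. In the 5 other libraries Nptx1 was -0.094, Dlx5 0.12, Dlx1 0.059, Dlx2 0.11, Sp9 0.18, Dcx 0.059, Drd2 0.046 and Adora2a 0.12. The cause of these changes was not tested. In the 5 other libraries each compared group has 1 library, assumed to vary like the injured saline mice. A call there does not rest on spread between mice of either group, so the number of genes passing there is not given. DESeq2 gave no adjusted p for 15 genes.

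With 3 mice per group, differences under about the interval widths given cannot be resolved: the median interval reached 0.25 either side of the log2 fold change for genes whose log2 CPM averaged 0 or more, and intervals for weaker genes were wider. The p-values rest on a spread shared across genes.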
